A study of Mus musculus with 19 samples.

Results

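The spliceosome genes described here are those whose symbol begins with Snrp, Sf3a, Sf3b, Srsf, Prpf or U2af, as measured in RNA from neurites cut off cultured hippocampal neurons. The rule found 43 of the 18193 genes on the array, read by 116 probe sets: 9 Snrp genes, 3 U2af genes, 9 Sf3a and Sf3b genes, 10 Srsf genes and 12 Prpf genes. Cultures were started from E18 mouse embryos, either Balb/c or C57BL/6, both inbred, and grown for 14 days without treatment. Pools of dendrites were collected across many cells with a glass pipette, amplified in several rounds and hybridised to an Affymetrix mouse array, 1 pool to an array. Balb/c had 5 arrays (2 with 100 dendrites, 1 with 200, 2 with 400) and C57BL/6 had 14 (4, 5 and 5 at these sizes). Per the study, axons could not be told from dendrites by shape in these pyramidal neurons, so each pool may hold some axons. Pools are labelled as biological replicates, but nothing says that they came from separate cultures or animals, so the p-values below measure only the spread between pools. With pooled neurites, fewer neurites of a kind and less RNA per neurite cannot be told apart.

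Splicing takes place in the nucleus. The U1, U2, U4, U5 and U6 particles, each a small RNA with proteins, recognise the ends of an intron and its branch site, and SR proteins bound to exons help to recruit them. Most of the particles carry a ring of Sm proteins, made by the Snrp genes, which is loaded onto the small RNA in the cytoplasm. The SF3a and SF3b complexes belong to the U2 particle, U2AF guides it to the 3' end of the intron, and many of the Prpf proteins sit in the U4/U6.U5 complex. An mRNA for any of these proteins in a dendrite pool is taken as a transcript found outside the cell body, and the array does not read the protein. Per the study, however, some RNA of the soma may have entered the dendrite samples.

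Expression is on a log2 scale, and a gene's value is the median of its probe sets that carry 1 symbol. Levels of different genes rest on different probes and are not amounts of RNA that can be set against each other, so the place of a gene is given as its percentile among all genes of an array, which is open to the same limit. Differences are Balb/c minus C57BL/6. As deposited, Balb/c exceeded C57BL/6 by 0.22 at the median gene, by 0.08 after quantile normalisation and by 0.04 after range scaling, so differences are given relative to the median gene unless they are said to be as deposited, while limma tested the values as deposited. A gene is called higher or lower at an adjusted p under 0.05 (Benjamini-Hochberg over all 18193 genes).

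An array's name gives its strain, its pool size in dendrites and its replicate number. Balb/c 200-1, C57BL/6 200-1 and C57BL/6 400-1 lay between the strains: Balb/c 200-1 had a mean correlation of 0.678 with the other Balb/c arrays and of 0.763 with the 12 remaining C57BL/6 arrays. The 5 Balb/c columns and 4 of the C57BL/6 columns were written with more decimals than the other 10. No source used here says what this number format stands for, and it was entered as a block in an alternative fit. The 3' minus 5' difference of the Actb control probe sets was -0.69 to 2.27 in Balb/c and 1.17 to 5.56 in C57BL/6. That of the Gapdh control probe sets was 1.48 to 4.72 in Balb/c and 2.39 to 5.00 in C57BL/6, with means of 3.14 and 3.27. So the 2 controls did not show the same strain difference, and their part in the differences below was not tested. Of 18 measured dendritic and pyramidal neuron markers, 2 were called higher and 7 lower in Balb/c, and their mean level ran from 7.07 to 7.83 in Balb/c and from 7.62 to 8.23 in C57BL/6. Of markers of excitatory neurons, Slc17a7 lay at the percentiles 33.2 in Balb/c and 36.0 in C57BL/6 and Neurod2 at 92.0 in both. Neurod1 lay at 78.6 and 90.4 and Nrgn at 99.9 and 99.8. Others of the 18 markers lay further apart: Neurod6 at 23.6 and 91.9, Crym at 4.58 and 93.1, Tbr1 at 9.40 and 59.2. Map2 lay at 28.2 and 77.4. The 2 called higher were Camk2a, at 72.6 and 52.7, and Arc, at 66.2 and 46.6. Of markers of inhibitory neurons, Gad1 lay at 83.1 and 96.6, Gad2 at 71.6 and 72.4 and Slc32a1 at 50.0 and 45. Sst lay at 46.4 and 80.4, and Pvalb went the other way, at 76.0 and 33.4. Interneuron markers had 1 called higher and 2 lower of 10 (means of 8.01 to 8.70 against 8.28 to 9.04) and nuclear RNAs had 1 higher and 4 lower of 8 (7.92 to 8.86 against 8.23 to 9.69). Astrocyte markers had 0 higher and 2 lower of 10 (6.34 to 7.86 against 6.58 to 7.77), oligodendrocyte markers had 3 higher and 0 lower of 9 (6.34 to 6.99 against 6.25 to 6.62), and microglia markers had 4 higher and 0 lower of 10 (6.49 to 6.96 against 5.63 to 6.58). The part of these cells and of nuclear RNA in the results was not tested.

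Of the 43 genes, 12 were lower and 3 were higher in Balb/c dendrites, and 28 did not pass the test. The share called, 34.9%, was near the 32.5% of all genes, but with the median of probe sets as the gene value more were called lower (27.9% against 11.4% of all genes) and fewer higher (7.0% against 21.1%). With the brightest probe set of each gene in place of the median this was not so, with 23.3% of the 43 called higher and 16.3% lower, against 20.6% and 14.1% of all genes. After quantile normalisation 15.2% of all genes were called higher and 13.9% lower, after range scaling 14.3% and 14.6%, and under both 13 of the 43 were lower and 3 higher. The median splicing gene lay 0.32 below the median gene, and 30 of the 43 lay below it, but with the brightest probe sets the median difference relative to the median gene was -0.02. Over the 43 genes the mean was 7.34 ± 0.215 in the 5 Balb/c arrays and 7.62 ± 0.151 in the 14 C57BL/6 arrays (SD).

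**Figure D1:**
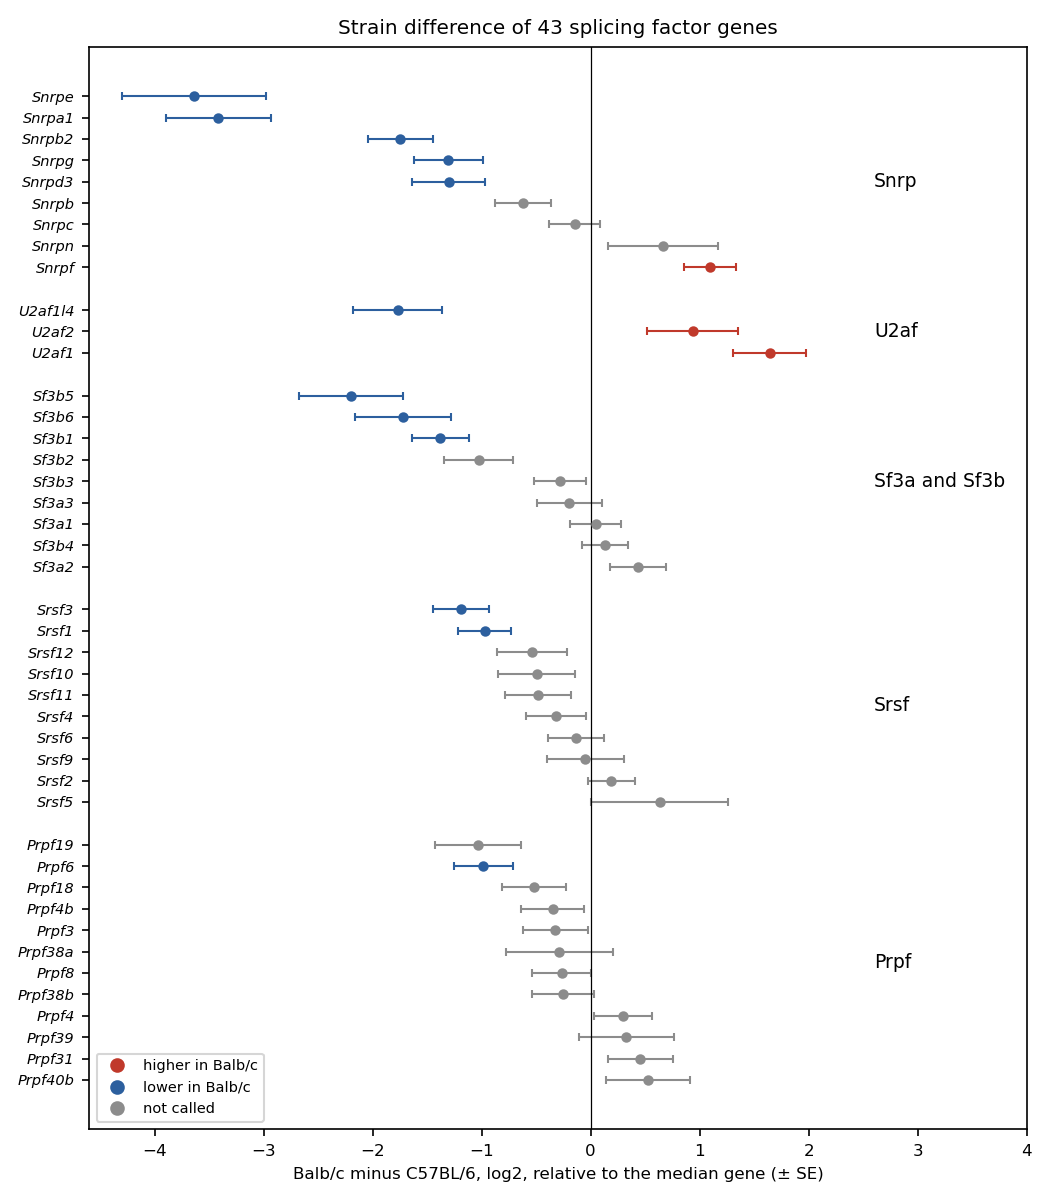
Strain difference of each of the 43 genes, Balb/c minus C57BL/6 in log2 units relative to the median gene (x axis), grouped by family, with the standard error as a bar. Blue points are the 12 genes called lower, red points the 3 called higher and grey points the 28 not called. With the median of probe sets as the gene value, most of the Snrp points lie to the left of 0, from -3.64 for Snrpe to 1.10 for Snrpf.

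The families did not share the calls evenly. Snrp genes had 5 of 9 called lower and 1 higher, with a median difference of -1.30, and Sf3a and Sf3b genes had 3 of 9 lower (median -0.28). Srsf genes had 2 of 10 lower (median -0.40) and Prpf genes 1 of 12 lower (median -0.27). In the U2af family 2 of 3 were higher and 1 lower (median 0.94). The mean over the 9 Snrp genes alone was 7.11 ± 0.415 in Balb/c and 8.05 ± 0.319 in C57BL/6 (SD). These family values rest on the median of probe sets. With the brightest probe set of each gene, Snrpe alone of the Snrp genes was called lower, and Snrpf was called higher. Both have 1 probe set, so this setting could not change them. Snrpa1, Snrpb2, Snrpd3 and Snrpg were then not called (-0.71, 0.44, -0.11 and -0.73 as deposited). Without the 3 arrays between the strains all 15 calls held. There 3 more genes were called higher (Prpf31, Prpf4 and Snrpn) and 2 more lower (Prpf19 and Sf3b2), with 28.2% of all genes higher and 15.3% lower. These 3 arrays were picked for lying between the strains in the same values, so a wider gap without them follows from the choice. The calls kept or gained there are therefore descriptions only. In the pools of 100 dendrites alone 8 of the 43 were called (11.5% of all genes), in the pools of 400 alone 8 (17%), and without the 2 Balb/c columns with the fewest distinct values 8 (11.3%).

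The strain difference was smaller beside the number format. Every Balb/c column had the long format, so that the difference with the format as a block equals that within the 9 long columns, 5 of Balb/c and 4 of C57BL/6. All 15 called genes kept their sign there, with as deposited differences of -2.94 to -0.38 for the 12 lower genes and of 0.67 to 1.41 for the 3 higher ones. With the block only Snrpa1 was still called (adjusted p = 0.0371), and the other 14 had adjusted p of 0.0529 to 0.577, where 1.92% of all genes were called by limma. Within the long columns alone limma called 0 of 18193 genes. At an unadjusted p under 0.05, 6 of the 43 genes passed there, against 13% of all genes. The number format, which 10 C57BL/6 arrays alone had in the short form, and the strain cannot be fully told apart. Of the 4 long C57BL/6 columns (100-1, 100-2, 200-1 and 400-1), 200-1 and 400-1 are arrays that lay between the strains. In the smaller differences, the format and the place of these 2 arrays cannot be told apart either.

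**Figure D2:**
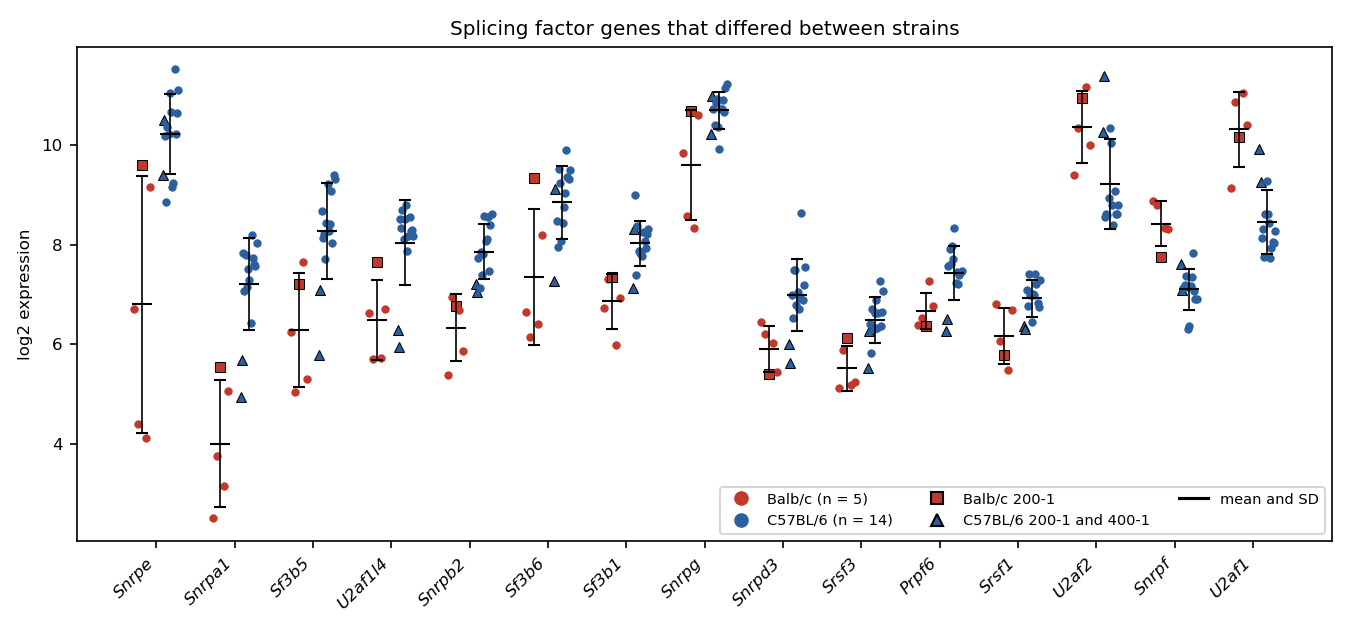
Log2 expression (y axis) of the 15 genes that differed between the strains (x axis, ordered by difference), 1 point per array, red for Balb/c (n = 5) and blue for C57BL/6 (n = 14), with mean and SD as black bars. Squares and triangles are the 3 arrays between the strains, and Snrpb2 is the gene whose groups do not overlap, with a highest Balb/c value of 6.95 and a lowest C57BL/6 value of 7.06.

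Among the Sm ring genes, Snrpe, Snrpg and Snrpd3 were lower in Balb/c and Snrpf was higher. Snrpe, the SmE protein, read 6.71 and 4.40 in the Balb/c pools of 100 dendrites, 9.61 in the pool of 200, and 4.13 and 9.16 in the pools of 400, against a lowest value of 8.87, a median of 10.3 and a highest of 11.5 in C57BL/6. Balb/c 100-1, 100-2 and 400-1 thus lay far under every C57BL/6 array, and Balb/c 200-1 and 400-2 lay within the C57BL/6 range. The means were 6.80 ± 2.57 and 10.2 ± 0.798 (SD, n = 5 and 14), a difference of -3.64 ± 0.66 (SE; adjusted p = 0.000836, limma), the largest of the 43, and Snrpe rests on 1 probe set, 1451294_s_at, with an ambiguous suffix. Its median rank went from the percentile 95.6 in C57BL/6 to 41.5 in Balb/c. Without the 3 arrays between the strains, a choice that by itself widens the gap, the as deposited difference was -4.17. With the number format as a block it was -2.94 (adjusted p = 0.065, limma). The 2 Balb/c columns with the fewest distinct values, 100-2 and 400-1, hold its lowest values. Without them the as deposited difference was -1.73 (adjusted p = 0.0436, limma).

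Snrpg, the SmG protein, was among the top 5% of genes by median rank in both strains. Its Balb/c values were 9.84, 8.57, 10.7, 8.34 and 10.6 in the order of the arrays above, and C57BL/6 ran from 9.92 over a median of 10.7 to 11.2. The same 2 Balb/c arrays, 200-1 and 400-2, were high and within the C57BL/6 range, and the other 3 lay below it. The difference was -1.31 ± 0.32 (SE; adjusted p = 0.0124, limma), and it was not called without Balb/c 100-2 (adjusted p = 0.0626) or without Balb/c 400-1 (0.0726), nor with its brightest probe set (-0.73 as deposited, 0.0882).

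Snrpd3, the SmD3 protein, read 6.45, 6.21, 5.41, 6.02 and 5.45 in Balb/c, against 5.63, 6.97 and 8.63 as the lowest, median and highest values of C57BL/6. The lowest C57BL/6 values were those of 400-1 (5.63) and 200-1 (6.00), and 3 of the 5 Balb/c arrays lay within the C57BL/6 range. The difference of -1.30 ± 0.34 (SE; adjusted p = 0.0174, limma) was not called without Balb/c 400-2 (adjusted p = 0.0530) or with its brightest probe set (-0.11 as deposited, 0.926).

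Snrpf, the SmF protein, went the other way, and it rests on 1 probe set. It read 8.89, 8.79, 7.75, 8.34 and 8.32 in Balb/c and ran from 6.32 over a median of 7.14 to 7.84 in C57BL/6. All Balb/c arrays but 200-1 lay above every C57BL/6 array. The difference was 1.10 ± 0.24 (SE; adjusted p = 0.000661, limma) and was called when any single array was left out. In the Sm ring SmE, SmF and SmG are neighbours, and their transcripts thus differed between the strains in opposite directions.

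SmB and its neuronal relative SmN did not pass the test. Snrpb had a difference of -0.62 (adjusted p = 0.227, limma). Snrpn, the imprinted gene of SmN, read 7.97, 8.36, 5.31, 5.62 and 8.18 in Balb/c, with 3 arrays high and 2 low, against 6.21 ± 0.919 in C57BL/6 (SD, n = 14), a difference of 0.66 (adjusted p = 0.184). Of Snrpn only probe sets without its overlapping partner Snurf were counted, and 6 that name both were left out. Snrpa, Snrpd1 and Snrpd2 were read only by probe sets that also name other genes, so these 3 have no value here.

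Snrpa1 and Snrpb2, which make the pair of proteins particular to the U2 particle, were both lower in Balb/c. Snrpa1 read 2.51, 3.76, 5.54, 3.15 and 5.07 in Balb/c, and 4.95, 7.55 and 8.19 as lowest, median and highest in C57BL/6. The 3 lowest Balb/c values lie near the bottom of the scale, where the lowest value in the file is 2.12, so the size of the difference is uncertain, since signal over background was not analysed. In C57BL/6 the lowest values were those of 200-1 (4.95) and 400-1 (5.69). The difference was -3.41 ± 0.48 (SE; adjusted p = 0.000168, limma), and the median percentile was 0.69 in Balb/c and 70.2 in C57BL/6. It was the only gene of the 43 still called beside the number format, where its as deposited difference was -2.38. It was not called with its brightest probe set, 1417352_s_at (-0.71 as deposited, adjusted p = 0.373).

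Snrpb2 read 5.39, 6.95, 6.76, 6.69 and 5.86 in Balb/c, and 7.06, 7.84 and 8.62 as lowest, median and highest in C57BL/6. It was the only gene of the 43 whose groups did not overlap, while 0.418% of all genes lay wholly lower and 0.797% wholly higher in Balb/c. Its difference was -1.74 ± 0.30 (SE; adjusted p = 0.0010, limma). The gene value is a median of 3 probe sets, of which 1 was called lower, at -2.65, and the brightest, with means of 12 and 11.5, read 0.23 higher and was not called. Snrpc, of the U1 particle, had a difference of -0.15 (adjusted p = 0.844).

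The 2 U2AF subunits, which bind the 3' splice site as a pair, were both higher in Balb/c. The paralogue of the small subunit was lower. Each of U2af1, U2af2 and U2af1l4 rests on 1 probe set, so no second probe set can be set beside these calls. U2af1, the small subunit that reads the AG at the end of the intron, was 9.13, 10.9, 10.2, 11 and 10.4 in Balb/c, and 7.74, 8.30 and 9.92 as lowest, median and highest in C57BL/6. Its highest C57BL/6 value was that of 200-1, and Balb/c 100-1 alone lay within the C57BL/6 range. The difference was 1.64 ± 0.33 (SE; adjusted p = 0.000546, limma), called when any single array was left out. With the number format as a block it was 1.41 as deposited (adjusted p = 0.066).

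U2af2, the large subunit that binds the pyrimidine tract, was 9.39, 10.3, 11, 11.2 and 9.99 in Balb/c, and 8.40, 8.79 and 11.4 as lowest, median and highest in C57BL/6. All 5 Balb/c values lay within the C57BL/6 range, whose highest values included 400-1 (11.4) and 200-1 (10.3). The difference of 0.94 ± 0.42 (SE; adjusted p = 0.0374, limma) was called in 8 of the 19 fits that left out 1 array. It was lost without Balb/c 100-2, 200-1 or 400-1 (adjusted p = 0.0694, 0.0869 and 0.126) and without C57BL/6 100-1, 100-3, 100-4, 200-4, 200-5, 400-3, 400-4 or 400-5 (0.0501 to 0.0535).

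U2af1l4, the gene of the paralogue U2AF26, was 6.63, 5.70, 7.66, 5.74 and 6.71 in Balb/c, and 5.95, 8.29 and 8.81 as lowest, median and highest in C57BL/6. The lowest C57BL/6 values were those of 400-1 (5.95) and 200-1 (6.29), and 3 Balb/c arrays lay within the C57BL/6 range. The difference was -1.77 ± 0.41 (SE; adjusted p = 0.00654, limma). So U2af1 stood at the percentiles 96.1 in Balb/c and 82.6 in C57BL/6 and U2af2 at 96.2 and 87.5, and both were among the top 5% of genes in Balb/c only.

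In the SF3b complex, which holds the branch site in the U2 particle, 3 of 6 genes were lower in Balb/c. Sf3b1, the scaffold of the complex, read 6.73, 7.32, 7.36, 5.99 and 6.92 in Balb/c, and 7.13, 8.0 and 9.01 as lowest, median and highest in C57BL/6. The lowest C57BL/6 array, 200-1, lay below Balb/c 100-2 and 200-1, and the other 3 Balb/c arrays lay below all of C57BL/6. The difference was -1.38 ± 0.26 (SE; adjusted p = 0.00265, limma). One of its 4 probe sets, 1440818_s_at, with an ambiguous suffix, was called, at -3.10, and the other 3 lay between -0.79 and 0.63. Sf3b1 was not called with its brightest probe set (-0.39 as deposited, adjusted p = 0.246) or without ambiguous probe sets (-0.26 as deposited, 0.423).

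Sf3b5, a small subunit, read 6.24, 5.04, 7.22, 7.65 and 5.31 in Balb/c, and 5.79, 8.34 and 9.41 as lowest, median and highest in C57BL/6. The lowest C57BL/6 values were again those of 200-1 (5.79) and 400-1 (7.10), and 3 Balb/c arrays lay within the range. The difference was -2.20 ± 0.48 (SE; adjusted p = 0.00389, limma).

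Sf3b6, the subunit that contacts the branch point adenosine, read 6.65, 6.16, 9.33, 6.41 and 8.19 in Balb/c, and 7.27, 9.08 and 9.90 in C57BL/6. As for Snrpe and Snrpg, Balb/c 200-1 and 400-2 were within the C57BL/6 range and the other 3 Balb/c arrays below it. The difference of -1.72 ± 0.44 (SE; adjusted p = 0.0124, limma) was not called without Balb/c 100-2 (adjusted p = 0.0581) or Balb/c 400-1 (0.0550). All 4 of its probe sets were lower, 3 of them called.

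The other 6 genes of the SF3a and SF3b complexes had differences of -1.03 to 0.43. Sf3b2 read 5.84, 5.88, 7.41, 6.39 and 6.01 in Balb/c against 7.12 ± 0.612 in C57BL/6 (SD, n = 14). The difference of -1.03 (adjusted p = 0.0533, limma) was called after quantile normalisation, range scaling or with a robust variance, among other settings. With its brightest probe set it was 0.51 as deposited (adjusted p = 0.380, limma), and without ambiguous probe sets -0.23 (0.646). Of its 7 probe sets only 1438637_x_at, with an ambiguous suffix, was called, at -3.02. Sf3a2 had a difference of 0.43 (adjusted p = 0.0554). Sf3b4, the subunit next to Sf3b2, was the highest ranked of the 43 genes, at the percentiles 99.0 and 98.2, with means of 11.6 ± 0.280 and 11.3 ± 0.329 (SD, n = 5 and 14) and a difference of 0.13 (adjusted p = 0.203).

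SR proteins bind exonic enhancers through RNA recognition motifs. Of 10 Srsf genes, Srsf3 and Srsf1 were lower in Balb/c. Srsf3 read 5.13, 5.89, 6.13, 5.18 and 5.25 in Balb/c, and 5.53, 6.52 and 7.27 as lowest, median and highest in C57BL/6, with C57BL/6 200-1 lowest and 3 Balb/c arrays below it. The difference was -1.19 ± 0.25 (SE; adjusted p = 0.00652, limma). Srsf1 read 6.80, 6.07, 5.78, 5.50 and 6.69 in Balb/c, and 6.30, 7.0 and 7.42 in C57BL/6. Here Balb/c 100-1 and 400-2 lay within the C57BL/6 range and the other 3 below it, and the difference of -0.97 ± 0.24 (SE; adjusted p = 0.0205, limma) was not called without Balb/c 200-1 (adjusted p = 0.0524) or 400-1 (0.0934).

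The other 8 Srsf genes had differences of -0.54 for Srsf12 to 0.63 for Srsf5, with adjusted p of 0.151 or more. Srsf4 was among the top 5% in both strains, with means of 10.8 ± 0.831 and 10.9 ± 0.356 (SD, n = 5 and 14) and a difference of -0.32 (adjusted p = 0.802, limma). Srsf5 was wide in both strains, from 7.05 to 11 in Balb/c and from 4.92 to 9.36 in C57BL/6. Srsf2 had a difference of 0.19 (adjusted p = 0.151). Clasrp, an SR-like gene once named Sfrs16 that the study probed by in situ hybridisation, ranked at the percentiles 97.4 and 97.2 and had a difference of -0.69 (adjusted p = 0.183).

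Of 12 Prpf genes, 1 was called. Prpf6, which bridges U5 and U4/U6, read 6.39, 6.53, 6.38, 7.27 and 6.78 in Balb/c, and 6.27, 7.47 and 8.35 as lowest, median and highest in C57BL/6. All 5 Balb/c values lay within the C57BL/6 range, because C57BL/6 200-1 (6.27) and 400-1 (6.51) were low. The difference of -0.98 ± 0.27 (SE; adjusted p = 0.0341, limma) was lost without Balb/c 100-1, 100-2, 200-1 or 400-2 (adjusted p = 0.0533 to 0.0816) and when the strains were given different variances (0.0792).

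The 11 others had differences of -1.03 to 0.53 and adjusted p of 0.0882 or more. Prpf8, the protein at the catalytic centre, had a difference of -0.26 (adjusted p = 0.908, limma), and Prpf19, a ubiquitin ligase, one of -1.03 (adjusted p = 0.116). Prpf31 and Prpf4, both of the U4/U6 particle, had differences of 0.45 and 0.30 (adjusted p = 0.0882 and 0.140), Prpf40b, related to a U1 protein, one of 0.53 (0.138), and Prpf4b, a kinase, one of -0.35 (0.749). Prpf38a read 10.2, 6.79, 10.6, 9.86 and 10.9 in Balb/c, with Balb/c 100-2 far under the others, and had a difference of -0.29 (adjusted p = 0.926).

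By median rank, 6 of the 43 genes (14.0%) were among the top 5% of genes in Balb/c and 4 (9.3%) in C57BL/6. Sf3b4, Snrpg and Srsf4 were in both sets. Prpf38a, U2af1 and U2af2 were added in Balb/c and Snrpe in C57BL/6. Spread between arrays was larger in Balb/c than in C57BL/6 for 32 of the 43 genes (74.4%), against 58.7% of all genes.

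The called genes were also averaged within each array. The mean over the 12 lower genes was 6.29, 6.05, 7.32, 6.01 and 6.83 in the Balb/c arrays 100-1, 100-2, 200-1, 400-1 and 400-2. It was 6.87 in C57BL/6 200-1, 7.45 in C57BL/6 400-1 and 7.69 to 8.72 in the other 12 C57BL/6 arrays. The mean over the 3 higher genes was 9.14 to 10.2 in Balb/c, 9.27 in C57BL/6 200-1, 9.24 in C57BL/6 400-1 and 7.83 to 8.64 in the other 12. In both means C57BL/6 200-1 and 400-1 lay on the Balb/c side of the other 12 C57BL/6 arrays. These genes were chosen by the strain difference itself, and these 2 arrays were singled out as lying between the strains. The gap between the strains and the place of the 2 arrays are therefore descriptions only. The Actb 3' minus 5' difference was 3.27 or more in those 12 arrays, 1.17 in C57BL/6 200-1 and 1.65 in C57BL/6 400-1. That of Gapdh ran from 2.39 to 3.80 in the 12 arrays and was 5.00 and 3.15 in these 2.

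Some genes had probe sets that disagreed. Of the 116 probe sets, 12 were called higher and 26 lower (32.8%), against 32.9% of all probe sets, 21.3% higher and 11.6% lower. Among the 29 genes with 2 or more probe sets, Prpf6, Srsf1, Srsf2 and Srsf3 had probe sets called in opposite directions (13.8%, against 9.93% of the 9010 such genes on the array). Probe sets whose suffix _x_at marks probes that can match other sequences had 8 of 12 called lower and 0 higher, against 26.4% lower and 16.1% higher of all such probe sets. Plain _at probe sets had 8 of 70 lower and 10 higher, against 9.15% and 22.5%, and _a_at ones had 6 of 18 lower and 0 higher, against 19.1% and 16.5%. With the suffix _s_at, 4 of 16 were lower and 2 higher, against 19.8% and 16.5%.

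For Prpf6, probe set 1426026_at was called higher by 1.94 (adjusted p = 0.000812, limma over all probe sets), and 1424036_at and 1454789_x_at were called lower at -1.37 and -1.40. For Srsf3, 1438215_at was called higher by 0.92 (adjusted p = 0.0406), while 4 of the other 5 were called lower, 1454993_a_at the most at -2.65 (adjusted p = 0.000414). For Srsf1, 1430982_at was higher by 0.82 (adjusted p = 0.0050) and 1428100_at lower at -3.12 (adjusted p = 0.000294). For Srsf2, whose gene value did not differ, 1427816_at was higher by 1.53 (adjusted p = 0.00521) and 1452439_s_at lower at -1.54 (adjusted p = 0.00363). In Prpf19 a single probe set of 5, 1456531_x_at, was called, at -4.43 (adjusted p = 0.00122), with a Balb/c mean of 8.77 ± 3.66 (SD, n = 5). Probe sequences were not analysed here, so which exons or 3' ends each probe set reads is not given.

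**Figure D3:**
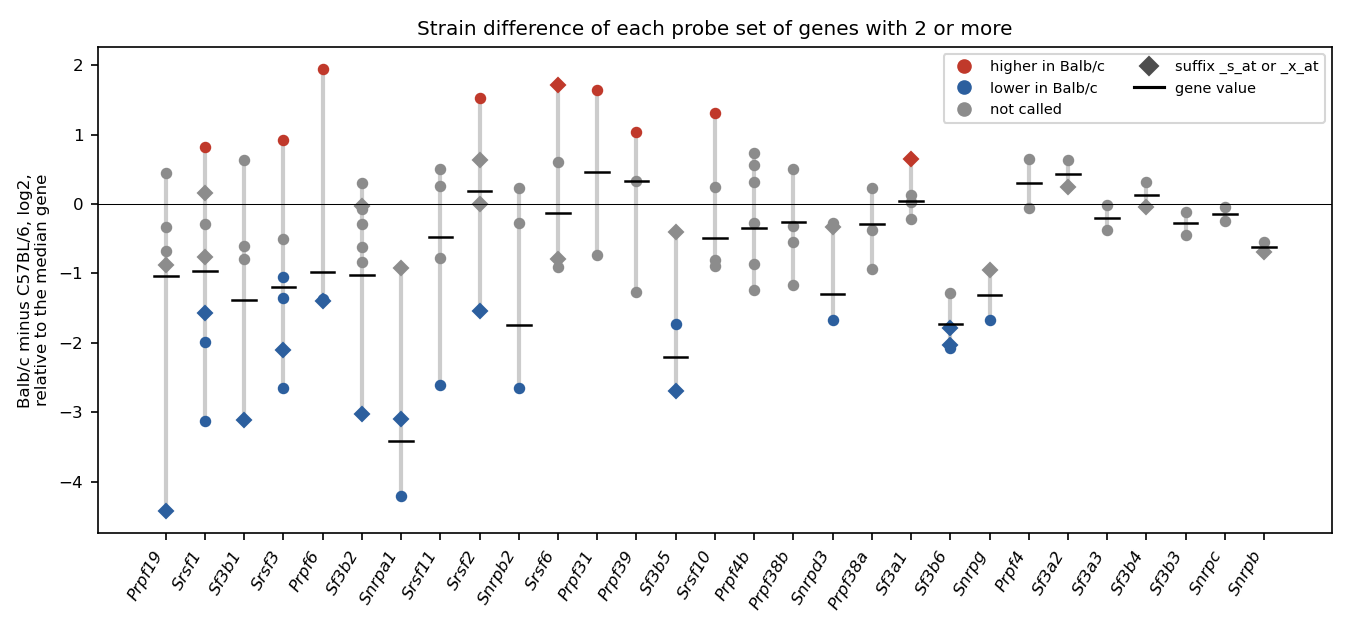
Strain difference of every probe set, Balb/c minus C57BL/6 in log2 units relative to the median gene (y axis), for the 29 genes with 2 or more probe sets (x axis, widest spread first). Red and blue mark probe sets called higher and lower, diamonds those with the suffix _s_at or _x_at, and the black bar is the gene value. Prpf6, Srsf1, Srsf2 and Srsf3 hold both colours.

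With the brightest probe set taken for each gene in place of the median, 10 of the 43 were called higher and 7 lower, against 20.6% and 14.1% of all genes. Of the 15 called genes 5 have a single probe set, for which this changes nothing: Snrpe, Snrpf, U2af1, U2af1l4 and U2af2. Of the other 10, 3 (Sf3b5, Sf3b6 and Srsf1) were called in the same direction. The 7 that were not are Prpf6, Sf3b1, Snrpa1, Snrpb2, Snrpd3, Snrpg and Srsf3. Prpf6 and Srsf3 were then called higher, at as deposited differences of 2.16 and 1.13, and Snrpb2 was 0.44 higher and not called. When probe sets with an ambiguous suffix were dropped, 4 were called higher and 9 lower of the 42 genes left, against 21.6% and 10.6% of all genes. The gene without a value there is Snrpe, and Prpf6 and Sf3b1 were no longer called lower.

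Pool size moved none of these genes past the test. A log2 slope for each doubling of the pool, fitted beside strain, was called by limma for 0 of 18193 genes (0%). At an unadjusted p under 0.05, 4.67% of all genes passed and 1 of the 43: Prpf4b, at -0.31 ± 0.14 per doubling (SE; adjusted p = 0.959). In C57BL/6 its means were 6.21 ± 0.172, 6.18 ± 0.631 and 5.80 ± 0.190 at 100, 200 and 400 dendrites (SD, n = 4, 5 and 5). Sf3b6 had a slope of 0.38 and Prpf8 one of 0.23, both with an adjusted p of 0.959. The C57BL/6 means of Prpf8 were 7.28 ± 0.333, 7.51 ± 0.494 and 7.69 ± 0.0944 in that order of sizes (SD, n = 4, 5 and 5).

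**Figure D4:**
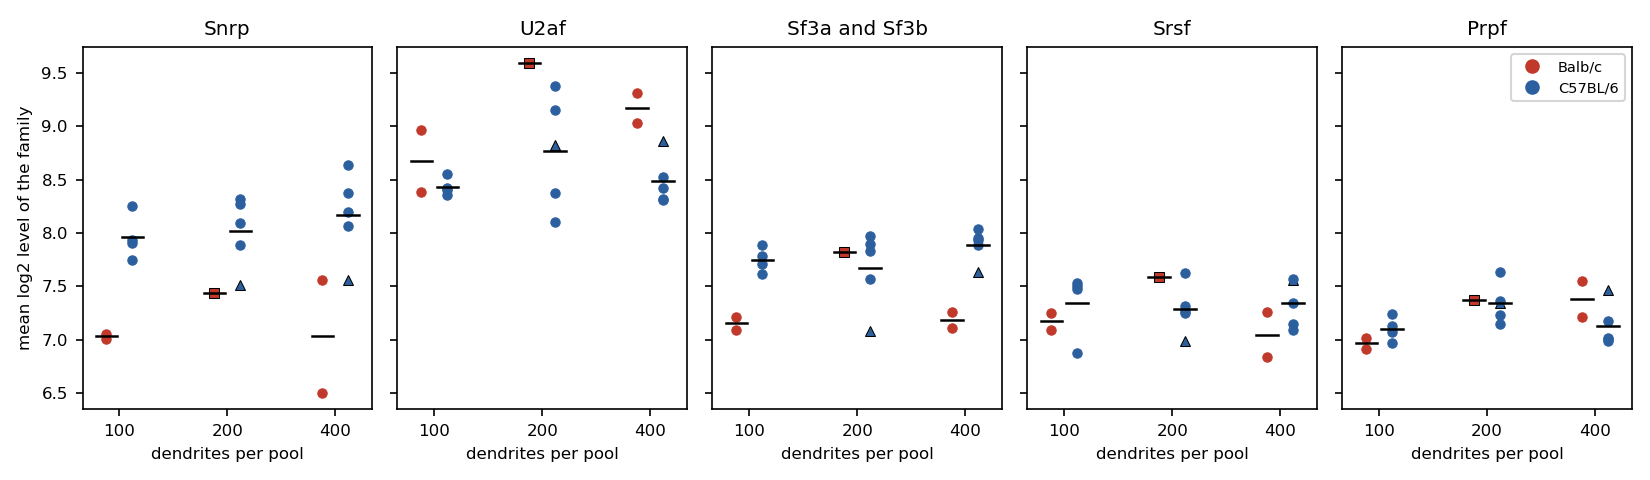
Mean log2 level of each gene family (y axis) against the number of dendrites in the pool (x axis), 1 point per array, red for Balb/c and blue for C57BL/6, with the mean of each group as a black bar. The square is Balb/c 200-1 and the triangles are C57BL/6 200-1 and 400-1. No gene was called for a slope with pool size, and in the Snrp panel the Balb/c points lie below the C57BL/6 points at each size, narrowly at 200 and 400 dendrites (7.11 ± 0.415 against 8.05 ± 0.319 over all sizes, SD).

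Nor did the slope differ between strains for any gene by the test: limma called 0 interactions of 18193 (0%), and at an unadjusted p under 0.05, 3.79% of all genes and 0 of the 43. The genes of smallest p among the 43 were Sf3a2, with a slope 0.56 per doubling lower in Balb/c than in C57BL/6, Prpf6, with one 0.56 higher, and Srsf5, with one 1.05 lower (adjusted p = 1 for each, limma). Sf3a2 read 8.68 and 7.72 in the Balb/c pools of 100 dendrites and 7.58 and 6.62 in those of 400, while C57BL/6 means were 6.96 ± 0.254 and 7.01 ± 0.291 (SD, n = 4 and 5).

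The 250 bases before the start of transcription are shown for Snrpb2, Snrpg and Sf3b6, as 3 genes lower in Balb/c whose promoters hold the core CCGGAAG of ETS factors, which stood in a larger share of these genes' promoters than of all promoters. It was read on either strand and is in capitals. They are from RefSeq, build GRCm38.p6: Snrpb2 at chr2:143062819-143063068, Snrpg at chr6:86371290-86371539 and Sf3b6 at chr12:4817358-4817607, all on the plus strand.
Snrpb2: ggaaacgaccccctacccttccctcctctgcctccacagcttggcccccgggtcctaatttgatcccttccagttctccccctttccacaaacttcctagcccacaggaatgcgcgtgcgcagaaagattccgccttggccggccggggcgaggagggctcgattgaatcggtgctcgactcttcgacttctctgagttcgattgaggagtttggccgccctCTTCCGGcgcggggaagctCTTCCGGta
Snrpg: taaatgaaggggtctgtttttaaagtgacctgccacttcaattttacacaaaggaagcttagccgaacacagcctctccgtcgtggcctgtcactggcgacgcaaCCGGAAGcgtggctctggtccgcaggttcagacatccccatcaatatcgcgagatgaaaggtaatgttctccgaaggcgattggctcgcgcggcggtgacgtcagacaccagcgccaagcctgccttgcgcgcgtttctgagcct
Sf3b6: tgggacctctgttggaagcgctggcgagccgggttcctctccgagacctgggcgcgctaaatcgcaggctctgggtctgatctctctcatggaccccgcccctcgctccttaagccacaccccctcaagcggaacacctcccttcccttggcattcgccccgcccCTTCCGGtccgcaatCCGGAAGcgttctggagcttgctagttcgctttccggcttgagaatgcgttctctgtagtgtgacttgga

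Promoters of 38 of the 43 genes were in the RefSeq table, each read from 250 bases before to 50 after the start. The letters CCGGAAG stood in 17 of them (44.7%), against 15.5% of the promoters of the 13273 measured protein-coding genes that have one. The match did not follow the strain call: it stood in 5 of 11 promoters of genes lower in Balb/c, in 0 of 2 of genes higher and in 12 of the 25 others, against 20.2% of all genes called lower and 12.3% of all called higher. Snrpb2 and Sf3b6 hold 2 matches each and Snrpg 1, at 145 bases before the start. Other letters were about as common in these genes as elsewhere: GGGCGG in 60.5% against 59.4%, CCAAT in 44.7% against 42.2%, TATAAA in 10.5% against 11.4%, CACGTG in 7.89% against 10.5% and TGACGTCA in 2.63% against 2.98%, both strands read. Longer exact letters for NRF1, ZBTB33 and YY1 stood in 1 of the 38 promoters each. A match of letters is a description and not a site of binding.

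Other splicing genes were called in both directions. Over 156 measured genes in 6 lists, 25 were called higher and 29 lower (34.6%, against 32.5% of all genes), with a median of -0.25. Of 60 other core spliceosome genes, 7 were higher and 9 lower (median -0.25): the helicase gene Dhx15 was lower at -3.79 (adjusted p = 8.4e-05, limma), Phf5a, an SF3b subunit, lower at -1.23 (0.00211) and Rbm17 higher at 1.45 (0.000407). LSm proteins, most of which ring the U6 RNA, had 1 higher (Lsm11, of the U7 particle, 0.99) and 1 lower (Lsm8, -2.42) of 9. Of 14 genes of the SMN complex and of Sm ring assembly, 1 was higher (Gemin5, 0.65) and 2 lower (Phax, which exports U RNAs from the nucleus, at -3.58, and Strap at -1.97), with a median of -0.19.

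Among 29 SR-related proteins and SR kinases, 8 were higher and 5 lower (median -0.08), among them Scaf11 at 1.54, Srrm1 at 0.97 and the kinase gene Clk1 at -2.80. Of 9 genes of the exon junction complex, which marks spliced mRNA, and of nonsense-mediated decay, 3 were higher and 2 lower (median -0.70). The 3 higher, Smg5 (1.14), Upf2 (0.78) and Smg6 (0.56), are decay factors. Upf1 and Smg1, also decay factors, lay at 0.05 and -0.84 and were not called. The 2 lower were Casc3 and Pnn, with Pnn at -0.80. Of the complex's own Eif4a3, Rbm8a and Casc3, Casc3 was lower at -2.05 and the others, at -0.70 and -0.81, were not called. Of 35 neuronal and tissue-specific splicing regulators, 5 were higher and 10 lower (median -0.41). Rbfox1, Celf4 and Ptbp2, RNA-binding regulators of neuronal splicing, were lower at -2.07, -2.43 and -2.17 (adjusted p = 0.000180, 0.000296 and 0.00111, limma).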

How the data were processed

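RNA of 19 pools of dendrites was hybridised to Affymetrix mouse arrays. Log2 values per probe set were deposited. The authors had summarised the probes of a set by their upper decile with RMA, for which the submitters' notes give version 2.0. That the scale is log2 was read from their range of 2.12 to 16. The median centring and range scaling that the methods name are not in these values, since array medians differ (6.62 to 6.95), and were run here as an alternative. No depth exists for arrays, so precision is set by their number, and signal over background was not analysed.

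Of 45101 probe sets, 64 were controls, 34945 had 1 symbol, 932 several and 9160 none in the platform annotation, which names no genome build. By gene identifier, 34741 of those with 1 symbol were found in RefSeq (GRCm38.p6), and 0 symbols had changed. Probe sets with 1 symbol were reduced to their median per gene, with no filter on dim genes, and 11 probe sets that list a symbol of the rule together with another gene were left out. Snrpa, Snrpd1, Snrpd2, Snrpert, Srsf7 and 3 pseudogenes were not analysed here.

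Arrays were grouped by strain as labelled. Strain was the only term of the fit to all genes and all 19 arrays (limma 3.58.1 in R 4.3.3, lmFit and eBayes), with Benjamini-Hochberg adjustment at 0.05. Pool size entered a further fit as a slope per doubling beside strain, and another as its interaction with strain. Quantile normalisation, range scaling, another choice of probe sets, a filter on dim genes, other variance models, the methods' t-test, the number format (up to 14 or up to 9 decimals, whose origin no source used here gives) as a block, a replicate block, subsets of pools and leaving out arrays were tried as alternatives. The limma fits were tested on simulated data. The genes, the gene lists and the marker lists were chosen with earlier results of these data known, so counts over them are descriptions. Values were given for up to 5 genes with the smallest p in each family, for genes called higher, for the 3 with the smallest p for pool size and for the interaction, for genes in the top 5% by median rank, for genes whose probe sets were called in opposite directions, for Snrpn, Snrpb and Clasrp, and for 3 genes of each other splicing list with the smallest p. Snrpc, Srsf12, Prpf4, Prpf31, Prpf19 and Prpf40b were also named where they bound a range or a call. Plots were drawn with matplotlib 3.10.9.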

Additional observations from a re-analysis of the deposited data

Results flagged for a closer look

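In 8 of 60 tests, 1 array stood apart from the others of its strain and pool size, with a gap to its nearest neighbour that was a large part of the group's whole range. Chance gives about 1 such array in 20 groups that are independent. The genes here were read on the same arrays, so the 8 flags are not independent and cannot be weighed against that rate. In 5 of the 8 the array was C57BL/6 400-1. Among the 5 C57BL/6 pools of 400 dendrites it read 6.51 for Prpf6 (nearest other 7.21), 5.69 for Snrpa1 (7.58), 5.95 for U2af1l4 (8.18), 9.26 for U2af1 (8.28) and 11.4 for U2af2 (9.08). Each of these values lay on the Balb/c side of its group. Among the same pools, C57BL/6 400-2 read 7.84 for Snrpf (nearest other 7.09). C57BL/6 200-1 read 5.79 for Sf3b5 (nearest other 8.27) among the pools of 200 dendrites. Snrpe read 8.87 in C57BL/6 100-2 (nearest other 10.2) among the pools of 100.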

How the results depend on the processing

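The main count was 3 genes higher and 12 lower in Balb/c, 15 in all. It was 0 (0 higher, 0 lower) within the columns of the long number format, 1 (0 higher, 1 lower) with that format as a block, and 8 in pools of 100 dendrites, in pools of 400 and without the 2 columns of fewest distinct values (6 lower in each). With the brightest probe set it was 10 higher and 7 lower. Without the 3 arrays between the strains 6 were higher, and 7 were higher when, as chosen after seeing the data, pools of 100 and 400 alone were also kept. These arrays were picked by their place between the strains, so more calls without them follow from the choice. Leaving out each array in turn gave 2 to 5 higher and 9 to 13 lower, with 5 higher only without C57BL/6 200-1. Among the 15 called genes the sign turned for Prpf6, at 2.16 with the brightest probe set and 0.50 without ambiguous probe sets. It also turned for Snrpb2 (0.44) and Srsf3 (1.13), both with the brightest probe set. Over 31 named genes and 36 alternatives, 961 values kept side and direction, 97 were no longer called, 36 became called, 4 changed sign and 9 uncalled values moved. The cause of these changes was not tested. With pool size and replicate number as a replicate block, 0 genes were called (6 of the 43 at an unadjusted p under 0.05, 18.3% of all genes), and the deviations of arrays of the same number and size correlated at -0.189 to 0.0714 and best with their own number in 0 of 5, so the numbers do not pair the arrays. Slopes and interactions with pool size called 0 of the 43 genes under every alternative run, a slope fit without the 3 arrays added after seeing the data included. With 5 Balb/c arrays and a spread of up to 2.57, small differences cannot be seen.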
